A study of Mus musculus with 30 samples.

Results

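Ctsl, Ctss, Lgmn, Laptm5, Idua and Cln3 are 6 genes of the lysosome, the acidic compartment in which cells break down protein, lipid and sugar chains. They were taken by name, as every probe whose single gene symbol is one of these 6, which gave 6 probes of the 6267 on the array, 1 for each gene, among 3663 genes named by a single symbol. All 6 passed the filter on low values that left 5010 probes for testing.

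The study followed involution, the regression of the milk-producing mammary gland after lactation, in wild type mice and in E2F3 +/- mice, which carry 1 working allele of the cell cycle transcription factor E2F3. Per the labels, the glands come from lactating mice (day 0) and from mice on days 1, 2, 3 and 4 of involution. The labels number 3 replicates of each genotype at each time. Read as separate mice, these give 10 groups of 3 mice and 30 arrays. RNA of each whole gland (Cy5) was hybridised against 1 common mouse reference RNA (Cy3). No strain, age or further treatment is given in the sources used here, and 0 probes are named E2f3, so E2f3 itself has no value here.

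Lysosomal proteases are made as inactive precursors, carried to the lysosome on mannose 6-phosphate receptors and switched on by the acid pH that the vacuolar proton pump maintains. In the involuting mouse mammary gland, milk-secreting cells take up milk fat and debris, lysosomes become leaky under the control of the transcription factor Stat3, and released cathepsins take part in the death of these cells. Macrophages, which are also rich in lysosomes, then enter and clear dead cells.

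The 6 genes differ in role. Ctsl encodes cathepsin L, a cysteine protease found in the lysosomes of most cells. Ctss encodes cathepsin S, a cysteine protease of antigen-presenting cells that stays active near neutral pH. Lgmn encodes legumain, a protease that cuts after asparagine and processes other lysosomal proteases, cathepsin L among them. Laptm5 encodes a lysosomal membrane protein of blood-derived cells that sends antigen receptors for degradation. Idua encodes alpha-L-iduronidase, a hydrolase of dermatan and heparan sulfate. Cln3 encodes a lysosomal membrane protein whose loss causes juvenile Batten disease.

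Promoter windows of the 3 genes that moved together below (Ctss, Lgmn and Laptm5), and of Ctsl, which moved apart from them, are shown to set their sequences side by side. Each runs from 250 bases before to 50 bases after an annotated RefSeq start, 5′ to 3′ on the strand of the gene, in build GRCm38.p6. Capitals mark CACGTG (the core of the sites bound by the lysosomal regulator TFEB) and GAGGAAGT or its reverse ACTTCCTC (a form of the site bound by the blood cell factor PU.1).
Ctsl, chr13:64370471-64370770, minus strand: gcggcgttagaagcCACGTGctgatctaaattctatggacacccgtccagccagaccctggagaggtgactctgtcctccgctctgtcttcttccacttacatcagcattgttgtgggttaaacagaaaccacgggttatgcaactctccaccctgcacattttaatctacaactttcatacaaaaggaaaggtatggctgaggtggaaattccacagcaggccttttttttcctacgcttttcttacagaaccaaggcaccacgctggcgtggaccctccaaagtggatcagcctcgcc
Ctss, chr3:95526536-95526835, plus strand: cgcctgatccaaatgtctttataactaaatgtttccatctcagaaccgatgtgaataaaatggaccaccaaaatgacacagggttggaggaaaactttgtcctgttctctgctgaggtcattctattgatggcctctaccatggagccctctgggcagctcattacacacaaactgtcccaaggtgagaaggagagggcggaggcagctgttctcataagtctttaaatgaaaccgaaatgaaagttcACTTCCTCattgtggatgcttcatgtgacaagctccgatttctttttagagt
Lgmn, chr12:102439043-102439342, minus strand: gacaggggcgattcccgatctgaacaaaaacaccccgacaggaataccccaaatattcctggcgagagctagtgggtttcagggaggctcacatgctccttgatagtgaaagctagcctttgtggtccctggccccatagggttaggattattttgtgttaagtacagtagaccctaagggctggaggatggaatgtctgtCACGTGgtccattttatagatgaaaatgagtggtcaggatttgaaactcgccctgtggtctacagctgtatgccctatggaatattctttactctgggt
Laptm5, chr4:130913066-130913365, plus strand: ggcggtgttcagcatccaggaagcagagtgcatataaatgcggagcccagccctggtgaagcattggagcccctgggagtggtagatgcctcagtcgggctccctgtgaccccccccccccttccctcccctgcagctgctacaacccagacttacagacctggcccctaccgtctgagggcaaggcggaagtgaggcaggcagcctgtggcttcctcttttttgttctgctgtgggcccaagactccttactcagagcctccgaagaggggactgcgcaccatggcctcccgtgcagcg

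All 6 genes had a window, 8 in all, since Lgmn and Cln3 have 2 each. CACGTG was present in 1 window each of Ctsl (236 bases before the start), Lgmn (49 before) and Cln3 (149 and 121 before), and in 7.15% of all 32851 windows. GAGGAAGT was present in Ctss alone among the 6 genes, on the reverse strand from 2 bases before the start onwards, and in 3.20% of all windows. TTCNNNGAA, the spacing of a Stat site, was present in 1 window of Cln3 alone among the 6 genes (221 bases before the start) and in 8.30% of all windows. The windows of Laptm5 and Idua held none of the 3 motifs. Of the 2 Lgmn windows, the 1 with CACGTG is printed above, and the other held none of the 3 motifs. Both strands were searched, the motifs do not overlap each other in letters, and they were chosen with these sequences in view. A match is a description and not a binding site.

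Values below are the authors' linear ratios, likely gland over reference, since the file does not write the direction. Ratios at 0 or 0.01 were taken as missing. For tests, ratios were put on the log2 scale and centred on each array's median. Differences are log2 differences ± standard error from limma with 3 against 3 arrays unless stated, adjusted over 5010 probes. A gene was called at an adjusted p under 0.05. Ratios compare 1 probe across samples and do not rank genes by level. Overlap of arrays between groups is given as a description of each gene and was not counted over all probes.

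Of the 30 arrays, 22 correlated best with their own group. The other 8 were nearer to another group, and all 3 E2F3 +/- day 3 arrays were among them. Of these 8, 3 were taken as standing apart. Wild type day 2 replicate 3 correlated at 0.495 with its own group and 0.867 with E2F3 +/- day 4. E2F3 +/- day 3 replicate 1 and E2F3 +/- day 4 replicate 3 were at -0.109 and -0.036 with their own groups. Both were nearest to wild type day 3 (0.433 and 0.376), so each of the 3 was nearest to a group of the other genotype. E2F3 +/- day 3 replicate 2, at 0.470 with its own group and 0.800 with E2F3 +/- day 4, was not among the 3. Calls of the 6 genes that changed without the 3 arrays that stood apart are given beside the result. The mean log2 ratio of the milk protein genes Csn3 and Lalba was at least 7.88 on every array, so each array carried the label's tissue. The array median of the ratio was between 1 and 1.27.

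**Figure D1:**
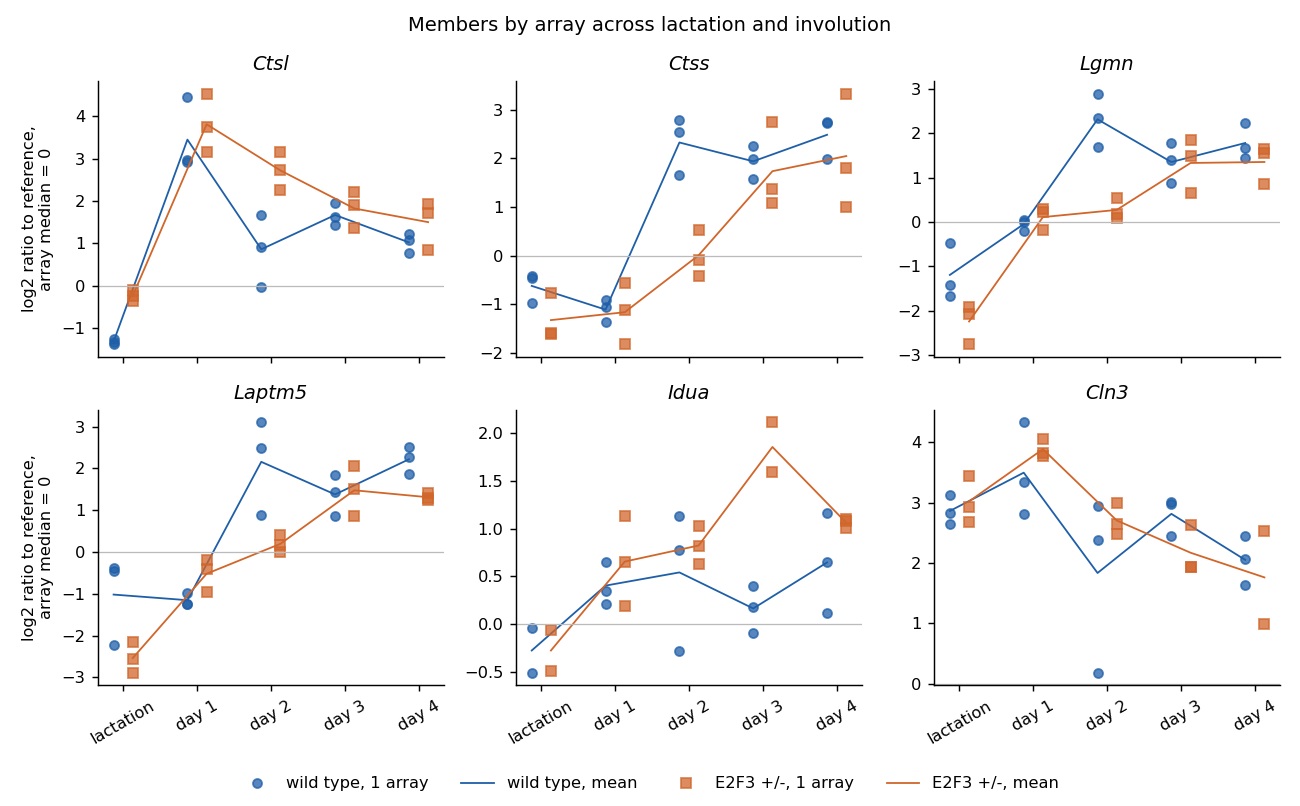
Each panel plots 1 gene, with the log2 ratio to the reference (array median set to 0) against time. Points are single arrays, lines join group means, circles are wild type and squares E2F3 +/- glands. Ctsl peaked at day 1 in both genotypes. The means of Ctss, Lgmn and Laptm5 were higher on wild type days 2 to 4 and E2F3 +/- days 3 and 4 than in the other groups. At day 1 Lgmn was already called above lactation in both genotypes, and Laptm5 in E2F3 +/- glands. No step between successive E2F3 +/- days was called with all arrays in the fit.

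Ctsl was lowest at lactation and highest at day 1 in both genotypes. In wild type glands its ratio was 0.409, 0.384 and 0.421 at lactation, 8.79, 8.46 and 23.1 on day 1, 2.16, 1.05 and 3.96 on day 2, 4.26, 2.97 and 3.41 on day 3 and 2.03, 2.28 and 2.56 on day 4. The E2F3 +/- glands gave 0.873, 0.944 and 0.773 at lactation, 25.7, 9.67 and 14 on day 1, 4.99, 9.54 and 7.01 on day 2, 4, 5.3 and 2.87 on day 3 and 4.04, 2.3 and 4.21 on day 4. Every array of days 1 to 4 lay above every lactation array of its genotype. At day 1 the gene rose 27.3-fold in wild type glands (4.77 ± 0.42, limma adjusted p = 5.33e-09) and 16.5-fold in E2F3 +/- glands (4.05 ± 0.42, limma adjusted p = 9.2e-08). On days 2, 3 and 4 it remained higher than at lactation by 2.18 ± 0.42, 2.99 ± 0.42 and 2.34 ± 0.42 in wild type and by 2.96 ± 0.42, 2.06 ± 0.42 and 1.74 ± 0.42 in E2F3 +/- glands, all called. In whole glands, more RNA per cell and more cells of a type that carries it cannot be told apart, here and for every gene below.

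The fall from the Ctsl peak was tested day by day. In wild type glands Ctsl fell by 2.59 on the log2 scale from day 1 to day 2 (SE 0.42, limma adjusted p = 5.72e-05), and the arrays of these days did not overlap. In E2F3 +/- glands the step was -1.09 ± 0.42 (adjusted p = 0.372), the groups overlapped, and it was not called. Ordered by mean, the 10 groups ran from wild type lactation through E2F3 +/- lactation, wild type day 2, wild type day 4, E2F3 +/- day 4, wild type day 3, E2F3 +/- day 3, E2F3 +/- day 2 and wild type day 1 to E2F3 +/- day 1. Neighbours in this order overlapped except at the lowest 2 steps and between E2F3 +/- day 3 and E2F3 +/- day 2.

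Ctss did not follow Ctsl: it was low at lactation and at day 1, and high on later days. The wild type ratio was 0.763, 0.507 and 0.728 at lactation, 0.595, 0.538 and 0.408 on day 1, 3.63, 7.32 and 7.17 on day 2, 3.27, 5.29 and 4.37 on day 3 and 4.74, 7.11 and 7.36 on day 4. The ratio in E2F3 +/- glands was 0.335, 0.335 and 0.587 at lactation, 0.754, 0.503 and 0.294 on day 1, 1.49, 0.997 and 0.794 on day 2, 2.26, 2.96 and 7.6 on day 3 and 12.4, 4.43 and 2.22 on day 4. The wild type arrays thus divide between day 1 and day 2, and the E2F3 +/- arrays of day 2 lie between the low and the high days. At day 1 the difference from lactation was -0.49 ± 0.48 (95% interval -1.47 to 0.50) in wild type and 0.16 ± 0.48 (95% interval -0.82 to 1.15) in E2F3 +/- glands, and neither was called. Ctss then rose from day 1 to day 2 in wild type glands by 3.44 ± 0.48, 10.9-fold (limma adjusted p = 1.44e-05). Against lactation it was higher in wild type glands by 2.95 ± 0.48, 2.56 ± 0.48 and 3.11 ± 0.48 on days 2, 3 and 4. In E2F3 +/- glands the rise was 1.33 ± 0.48 on day 2 (adjusted p = 0.0273), 3.06 ± 0.48 on day 3 and 3.38 ± 0.48 on day 4, all called. The E2F3 +/- day 2 call was lost on leaving out any one of 4 arrays (E2F3 +/- lactation replicates 1 or 2, E2F3 +/- day 2 replicates 1 or 2, adjusted p up to 0.116).

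Ordered by mean, Ctss ran from E2F3 +/- lactation through E2F3 +/- day 1, wild type day 1, wild type lactation, E2F3 +/- day 2, E2F3 +/- day 3, wild type day 3, E2F3 +/- day 4 and wild type day 2 to wild type day 4. E2F3 +/- day 2 stood clear of both neighbours in that order, and all other neighbours overlapped. The spread between E2F3 +/- mice was widest at day 4, with a standard deviation of 1.18 on the log2 scale against 0.43 in wild type glands.

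Lgmn was the protease that rose on every day in both genotypes besides Ctsl. In wild type glands its ratio was 0.736, 0.315 and 0.373 at lactation, 1.12, 0.976 and 1.09 on day 1, 3.71, 7.92 and 6.32 on day 2, 2.02, 3.82 and 2.89 on day 3 and 3.82, 5.05 and 2.97 on day 4. For E2F3 +/- glands the Lgmn ratio was 0.246, 0.15 and 0.267 at lactation, 1.36, 1.27 and 0.92 on day 1, 1.17, 1.55 and 1.13 on day 2, 1.68, 3.19 and 4.08 on day 3 and 3.82, 3.76 and 2.01 on day 4. All lactation arrays were below all arrays of later days of their genotype, and the highest wild type mean was that of day 2. Against lactation Lgmn was higher on days 1 to 4 by 1.14 ± 0.36, 3.51 ± 0.36, 2.54 ± 0.36 and 2.97 ± 0.36 in wild type glands. The corresponding E2F3 +/- differences were 2.35 ± 0.36, 2.52 ± 0.36, 3.57 ± 0.36 and 3.60 ± 0.36, so the largest, at day 4, was 12.1-fold (limma adjusted p = 5.26e-08). The wild type day 1 call (adjusted p = 0.0153) was lost without wild type lactation replicate 2 or 3 (adjusted p up to 0.0896). From day 1 to day 2 Lgmn rose 5.14-fold in wild type glands (2.36 ± 0.36, adjusted p = 3.37e-05) and differed by 0.16 ± 0.36 in E2F3 +/- glands, which was not called. Ordered by mean, Lgmn ran from E2F3 +/- lactation through wild type lactation, wild type day 1, E2F3 +/- day 1, E2F3 +/- day 2, E2F3 +/- day 3, wild type day 3, E2F3 +/- day 4 and wild type day 4 to wild type day 2. Neighbours overlapped except at the lowest 2 steps and between E2F3 +/- day 2 and E2F3 +/- day 3.

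Laptm5 moved with Ctss and Lgmn. Its wild type ratio was 0.749, 0.214 and 0.771 at lactation, 0.571, 0.472 and 0.444 on day 1, 2.1, 9.17 and 6.92 on day 2, 2, 3.92 and 2.98 on day 3 and 6.78, 5.21 and 4.01 on day 4. Among E2F3 +/- glands it was 0.229, 0.172 and 0.135 at lactation, 0.972, 0.819 and 0.534 on day 1, 1.38, 1.2 and 1.06 on day 2, 1.94, 3.23 and 4.72 on day 3 and 2.98, 3.36 and 2.63 on day 4. Wild type lactation replicate 2 was far below the other 2 wild type lactation arrays and close to the E2F3 +/- ones. At day 1 Laptm5 differed from lactation by -0.13 ± 0.46 in wild type glands (not called, 95% interval -1.07 to 0.81) and rose by 2.02 ± 0.46 in E2F3 +/- glands (adjusted p = 0.00139). On days 2, 3 and 4 it was higher by 3.18 ± 0.46, 2.40 ± 0.46 and 3.24 ± 0.46 in wild type and by 2.73 ± 0.46, 4.01 ± 0.46 and 3.85 ± 0.46 in E2F3 +/- glands, all called. The E2F3 +/- day 3 rise was 16.1-fold (limma adjusted p = 4.35e-07). From day 1 to day 2 Laptm5 rose 9.92-fold in wild type glands (3.31 ± 0.46, adjusted p = 1.36e-05), with no overlap of the arrays. Ordered by mean, it ran from E2F3 +/- lactation through wild type day 1, wild type lactation, E2F3 +/- day 1, E2F3 +/- day 2, E2F3 +/- day 4, wild type day 3, E2F3 +/- day 3 and wild type day 2 to wild type day 4. Neighbours overlapped except at the lowest step and on either side of E2F3 +/- day 2.

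Idua changed less. Its ratio in wild type glands was 0.701 and 0.969 at lactation (replicate 1 is listed at 0), 1.42, 1.3 and 1.64 on day 1, 1.95, 0.875 and 2.7 on day 2, 1.45, 1.25 and 1.03 on day 3 and 1.29, 2.4 and 1.73 on day 4. The E2F3 +/- values were 0.985 and 0.708 at lactation (replicate 2 is listed at 0), 1.26, 2.38 and 1.63 on day 1, 2.1, 1.64 and 1.86 on day 2, 3.45 and 4.88 at day 3 (replicate 1 is listed at 0) and 2.46, 2.69 and 2.36 at day 4. All E2F3 +/- arrays of days 1 to 4 with a value were above the lactation arrays, with day 3 highest, whereas the wild type arrays of days 2 and 3 overlapped with lactation. In E2F3 +/- glands Idua was higher than at lactation by 0.93 ± 0.36, 1.10 ± 0.36, 2.13 ± 0.39 and 1.34 ± 0.36 on days 1 to 4 (limma adjusted p = 0.0421, 0.0183, 0.000188 and 0.00302, n = 3 against 2, or 2 against 2 at day 3). In wild type glands the differences were 0.68 ± 0.36, 0.82 ± 0.36, 0.44 ± 0.36 and 0.92 ± 0.36 (n = 3 against 2), and day 4 alone was called (adjusted p = 0.035). With the values listed at 0 set to the smallest positive ratio, no Idua difference from lactation was called. Leaving out 1 array ended the wild type day 4 call for 3 arrays (wild type lactation replicate 2, wild type day 4 replicates 2 and 3, adjusted p up to 0.213), the E2F3 +/- day 1 call for 5 arrays (all E2F3 +/- lactation replicates and E2F3 +/- day 1 replicates 2 and 3, up to 0.218), and the E2F3 +/- day 2 call for 2 arrays (E2F3 +/- lactation replicate 3 and E2F3 +/- day 2 replicate 1, up to 0.137). By mean, Idua ran from the lactation groups through wild type days 3, 1, 2 and 4 and E2F3 +/- days 1, 2 and 4 to E2F3 +/- day 3, and only the last step had no overlap.

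Cln3 was not called higher than at lactation on any day with all arrays in the fit. Wild type glands gave ratios of 6.4, 8.7 and 7.07 at lactation, 22.5, 11.3 and 7.37 on day 1, 5.92, 8.2 and 1.4 on day 2, 6.02, 8.7 and 8.84 on day 3 and 3.7, 4.5 and 5.98 on day 4. The E2F3 +/- ratios were 11.2, 6.5 and 7.6 at lactation, 18.4, 15.4 and 14.2 on day 1, 5.77, 6.64 and 8.4 on day 2, 4.07, 4.37 and 7 at day 3, and 2.44 and 6.36 at day 4 (replicate 2 is listed at 0). Every array with a value was above its array median, day 1 held the highest group means, and neighbouring groups in the order of means overlapped throughout. Against lactation the wild type differences were 0.63 ± 0.50, -1.03 ± 0.50, -0.05 ± 0.50 and -0.81 ± 0.50 on days 1 to 4, none called. The day 2 value was -0.20 without the 3 arrays that stood apart, and there the day 4 value, still -0.81, was called (adjusted p = 0.0314). The E2F3 +/- differences were 0.87 ± 0.50, -0.32 ± 0.50 and -0.85 ± 0.50 on days 1 to 3, not called, and -1.26 ± 0.56 on day 4 (n = 2 against 3, adjusted p = 0.0479). That day 4 call lay at the threshold and was kept in 13 of 40 alternative settings. Leaving out the 3 arrays, the day 4 difference was -2.03 (adjusted p = 0.0005) and rested on 1 E2F3 +/- array, assumed to vary like the other groups, and the day 1 difference, still 0.87, was called higher (adjusted p = 0.027). From day 1 to day 2 Cln3 fell by 1.66 in wild type glands (adjusted p = 0.00938), with overlapping arrays, and the value without the 3 arrays that stood apart was -0.84 (adjusted p = 0.0583). Leaving out wild type day 1 replicate 1 also ended this call (-1.24, adjusted p = 0.0639). Of the 29 Cln3 ratios, 12 (41.4%) were whole multiples of 0.1 within a tolerance of 1e-06, against 11.4% of the 92828 ratios of all probes, both counted over ratios of at least 1 and under 100. What sets such steps is not given in the sources used here.

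**Figure D2:**
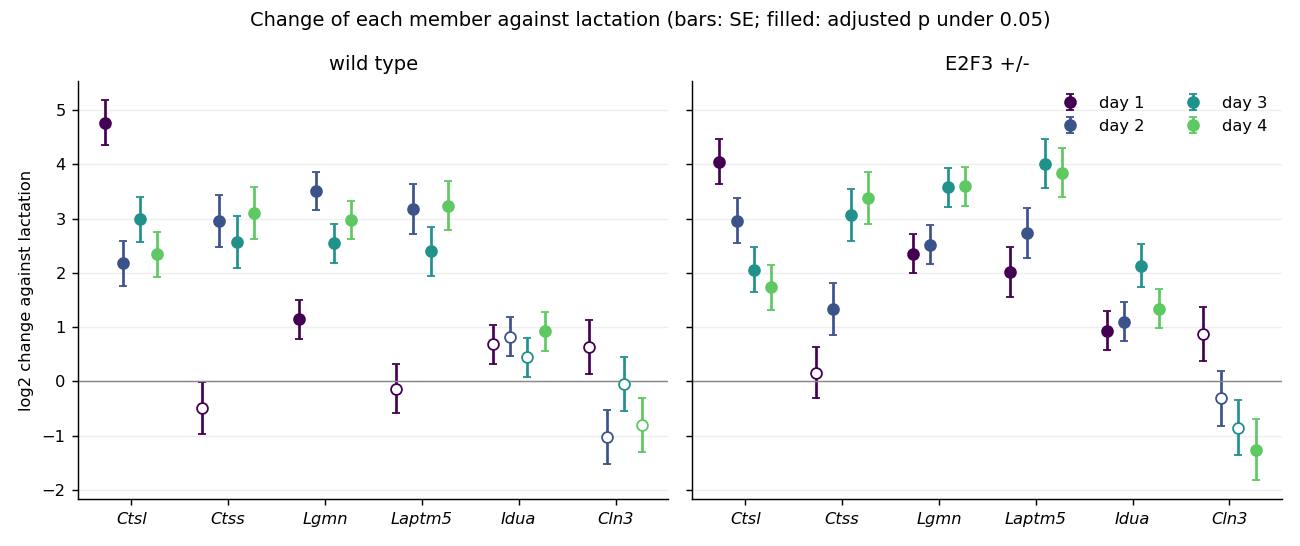
Log2 change of each gene against lactation in wild type (left) and E2F3 +/- glands (right), with days 1 to 4 in order within each gene. Points are model estimates, bars are standard errors, and filled points passed an adjusted p of 0.05. The day 1 point of Ctsl is the highest of its gene in both panels, and that of Ctss is open (not called) in both.

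Counted together, the 6 genes were called higher than lactation in wild type glands for 2 genes at day 1 (18.5% of all 5010 probes were called higher), 4 at day 2 (31.8%), 4 at day 3 (17.4%; 873 probes higher and 1081 lower, or 1112 and 915 with ratios not centred by array) and 5 at day 4 (25.4%). The counts called higher in E2F3 +/- glands were 4 (day 1, 23.2%), 5 (day 2, 23.7%), 5 (day 3, 34.2%) and 5 (day 4, 33.2%). No gene of the 6 was called lower, except Cln3 at E2F3 +/- day 4. Probes called lower made up 18.2%, 33.4%, 21.6% and 31.0% on wild type days 1 to 4 and 20.3%, 22.2%, 32.7% and 37.4% on E2F3 +/- days 1 to 4. The median difference of the 6 genes at day 4 was 2.66 in wild type and 2.56 in E2F3 +/- glands, against 0.06 and -0.01 over all probes. The 6 genes were chosen with earlier results of these data known, so their counts and medians beside those of all probes are not a test. The F test over the 4 days called 5 of the 6 genes in wild type glands (82.0% of probes), all but Idua (F = 2.04, adjusted p = 0.135), and all 6 in E2F3 +/- glands (77.1%). The Cln3 call in wild type glands (adjusted p = 0.0263) ended on leaving out wild type day 1 replicate 1 (adjusted p = 0.094).

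Between successive days, calls fell on the step from day 1 to day 2 in wild type glands. Of the 6 genes, 3 rose there (Ctss, Lgmn and Laptm5; 22.9% of probes rose) and 2 fell (Ctsl and Cln3; 27.5% fell). No gene of the 6 was called from day 2 to day 3 (16.5% of probes called, 478 higher and 350 lower, or 513 higher and 632 lower with quantile normalization) or from day 3 to day 4 (0%) in wild type glands. In E2F3 +/- glands no gene of the 6 was called at any step, where 0.120% of probes were called from day 1 to day 2 and 0% at both later steps. The unadjusted p was under 0.05 for 3, 5 and 1 of the 6 genes at these 3 E2F3 +/- steps. At the later wild type steps it was so for 1 and 0. The share of all probes with an unadjusted p under 0.05 was not counted, so these counts have no baseline. From day 2 to day 3 in E2F3 +/- glands Ctss differed by 1.73 ± 0.48, Laptm5 by 1.28 ± 0.46 and Lgmn by 1.06 ± 0.36 (limma adjusted p = 0.0965, 0.196 and 0.175). Without the 3 arrays that stood apart these differences were 2.06, 1.59 and 1.40 (adjusted p = 0.00376, 0.0261 and 0.00885), and Idua was called as well (1.03, adjusted p = 0.0298), so the lack of a call at this step rests on those arrays. Over all probes the count called at this step went from 0 to 1321 in the same setting. Ctsl was then also called at the wild type step from day 2 to day 3 (1.22, adjusted p = 0.0443), where the count over all probes went from 828 to 1161.

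The genotypes were first compared at each single time, which includes any difference already present at lactation. Their responses over time are compared further below. Called differences at a single time lay at day 2, where Ctsl was higher in E2F3 +/- than in wild type glands and Ctss, Lgmn and Laptm5 were lower. Ctsl, with ratios of 4.99, 9.54 and 7.01 against 2.16, 1.05 and 3.96, was 3.63-fold higher (1.86 ± 0.42, limma adjusted p = 0.0075). Ctss, with 1.49, 0.997 and 0.794 against 3.63, 7.32 and 7.17, was 5-fold lower (-2.32 ± 0.48, adjusted p = 0.00497). Lgmn, with 1.17, 1.55 and 1.13 against 3.71, 7.92 and 6.32, was 4.12-fold lower (-2.04 ± 0.36, adjusted p = 0.0015). In none of these genes did the arrays of the genotypes overlap. Laptm5, with 1.38, 1.2 and 1.06 against 2.1, 9.17 and 6.92, was 3.89-fold lower (-1.96 ± 0.46, adjusted p = 0.0092), also without overlap. Idua differed by 0.28 ± 0.32 (95% interval -0.39 to 0.95) and Cln3 by 0.87 ± 0.50 (95% interval -0.16 to 1.90), and neither was called. Of the 6 genes, 1 was thus called higher (7.17% of all probes) and 3 lower (5.57%). The share of all probes without overlap at this time was not counted.

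Wild type day 2 replicate 3, one of the arrays that stood apart, enters all 4 of these differences. Without the 3 arrays that stood apart they were 2.27 for Ctsl, -2.22 for Ctss, -2.02 for Lgmn and -1.80 for Laptm5 (adjusted p = 0.00201, 0.004, 0.00141 and 0.0213). Leaving out E2F3 +/- day 2 replicate 3 ended the Laptm5 call (adjusted p = 0.0517), and with only the 2 groups in the fit the adjusted p was 0.0632 for Laptm5 and 0.0512 for Ctsl. Array weights also ended the Laptm5 call (adjusted p = 0.0715). Without the 3 arrays that stood apart the Idua difference was 0.58 (adjusted p = 0.246) and the Cln3 difference 0.04 (adjusted p = 0.956). With ratios not centred by array, the split over all probes turned from 359 higher and 279 lower to 294 higher and 399 lower.

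**Figure D3:**
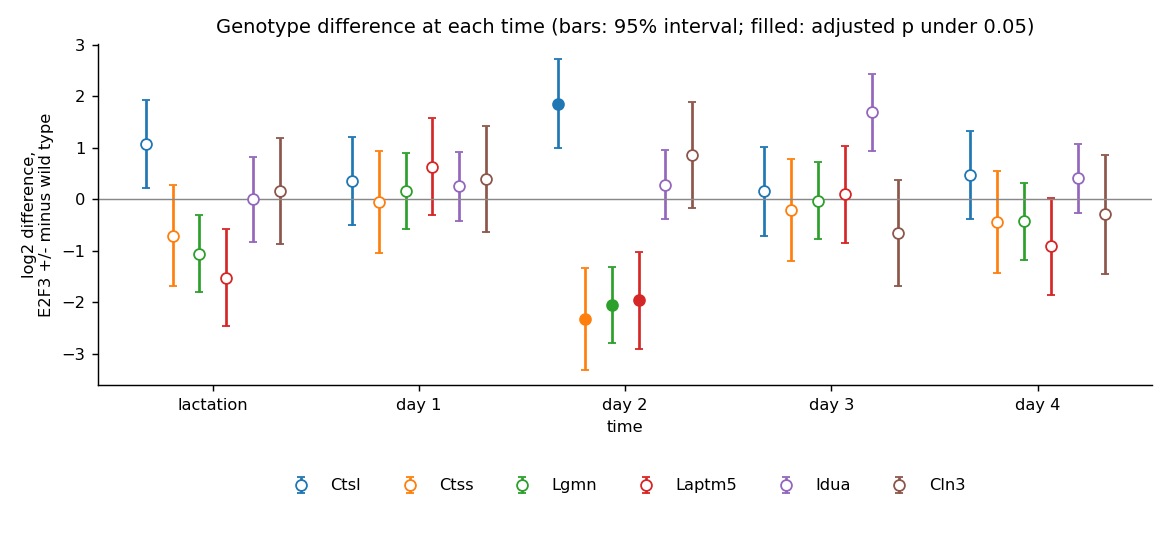
Log2 difference of E2F3 +/- minus wild type glands for each gene (colour) at each time. Points are model estimates, bars are 95% intervals from limma, and filled points passed an adjusted p of 0.05. At day 2 the Ctsl point is at 1.86, and those of Ctss, Lgmn and Laptm5 lie between -2.32 and -1.96.

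At the other times no gene of the 6 was called between genotypes. The share of probes called was 0.379% at lactation, 0.659% at day 1, 0% at day 3 and 1.12% at day 4, and the unadjusted p was under 0.05 for 3, 0, 1 and 0 of the 6 genes. At lactation Ctsl differed by 1.08 ± 0.42, Lgmn by -1.05 ± 0.36 and Laptm5 by -1.52 ± 0.46 (limma adjusted p = 0.44, 0.317 and 0.209). For Ctsl and Lgmn the lactation arrays of the genotypes did not overlap. At day 3 Idua differed by 1.69 ± 0.36 (n = 2 against 3, adjusted p = 0.296), without overlap, and it was called without the 3 arrays that stood apart (1.69, adjusted p = 0.00132), when 1150 of all probes were called against 0 with them. Setting the value at 0 to the smallest positive ratio turned this difference to -1.20 (adjusted p = 0.925), so it rests on how that value is read. By day 4 the intervals were -0.38 to 1.33 for Ctsl, -1.42 to 0.55 for Ctss, -1.17 to 0.31 for Lgmn and -1.85 to 0.03 for Laptm5.

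Over all times together, 2 of the 6 genes were called between genotypes (0.619% of probes). Ctsl was higher in E2F3 +/- glands by 0.79 ± 0.19 (adjusted p = 0.046) and Lgmn lower by 0.68 (SE 0.16, adjusted p = 0.0477), over 15 arrays each. Both adjusted p values lie near the threshold, and the calls were kept in 17 and 15 of 40 alternative settings. Laptm5 (-0.63, adjusted p = 0.0421) and Idua (0.58, adjusted p = 0.00984) were called as well without the 3 arrays that stood apart, and the count over all probes went from 31 to 1088.

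Whether the 2 genotypes responded differently over time was tested for the 4 days jointly. Lgmn (F = 6.21, adjusted p = 0.0403) and Laptm5 (F = 5.67, adjusted p = 0.046) were called, against 6.05% of probes. Ctss (adjusted p = 0.0974), Idua (0.116), Ctsl (0.159) and Cln3 (0.438) were not called. Without the 3 arrays that stood apart Ctss (adjusted p = 0.0314) and Ctsl (adjusted p = 0.0316) were called too, and the count over all probes went from 303 to 1754. The response of Laptm5 to day 1 was larger in E2F3 +/- than in wild type glands by 2.15 ± 0.64, and its response to day 2 differed by -0.44 ± 0.64. For Lgmn these values were 1.21 ± 0.51 and -0.99 ± 0.51. Each response is taken from lactation, where the genotypes differed by -1.52 ± 0.46 for Laptm5 and -1.05 ± 0.36 for Lgmn. At day 1 itself they differed by 0.63 ± 0.46 and 0.16 ± 0.36, and none of these differences was called. The larger responses to day 1 thus lay mostly in the lactation values. For Laptm5 the wild type lactation arrays had a standard deviation of 1.05. The response to day 2 differed by 0.78 ± 0.59 for Ctsl and by -1.62 ± 0.68 for Ctss. No gene of the 6 was called for a difference in response at a single day. Of all probes, 0.379%, 0%, 0.240% and 0.319% were called on days 1 to 4. The unadjusted p was under 0.05 for 2, 1, 2 and 0 of the 6 genes, likewise without a count over all probes. Idua was called at day 3 without the 3 arrays (1.69, adjusted p = 0.0289), and the count over all probes there went from 12 to 670. The Lgmn and Laptm5 calls were kept in 22 and 12 of 40 alternative settings.

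Across the 30 arrays the log2 ratios of Ctss, Lgmn and Laptm5 ran together, with Pearson correlations of 0.858 (Ctss and Lgmn), 0.906 (Ctss and Laptm5) and 0.943 (Lgmn and Laptm5). Ctsl had correlations of -0.127, 0.258 and 0.072 with Ctss, Lgmn and Laptm5. Those are descriptions over arrays that share 10 groups and a time course. The probes of named genes most like each gene over the arrays were taken by correlation. For Lgmn they were Cotl1 (0.973), Anxa2 (0.943) and Cyba (0.941), for Laptm5 Cyba (0.946), Ifitm2 (0.935) and Mmp14 (0.934), and for Ctss Dcn (0.953), Lyz1 (0.951) and Mmp2 (0.942). For Ctsl they were Txndc12 (0.895), Stmn1 (0.889) and Cd14 (0.877), and for Cln3, over 29 arrays, Mfsd11 (0.832), Ubxn6 (0.824) and Mob2 (0.821). Idua had a value on 27 arrays, under the minimum of 28, and was given no such list.

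Markers of macrophages moved with Ctss, Lgmn and Laptm5. Of 17 listed markers, 11 were tested, and 2, 11, 11 and 11 were higher than at lactation on wild type days 1 to 4, and 3, 10, 11 and 11 on E2F3 +/- days. The mean log2 ratio of the 9 macrophage markers measured on all arrays lay between 0.56 and 1.30 on wild type lactation arrays, 1.22 and 1.89 at day 1 and 3.60 and 5.07 at day 2, 3.39 and 4.09 at day 3 and 3.63 and 4.25 at day 4. In E2F3 +/- glands it lay between 0.10 and 0.53 at lactation, 1.51 and 2.10 at day 1, 2.12 and 2.65 at day 2, 2.84 and 3.76 at day 3 and 2.98 and 3.99 at day 4. Adgre1 and Fcgr3, which were not tested, are listed at 0 or 0.01 on 4 arrays each. At day 2, 6 of the 11 macrophage markers were lower in E2F3 +/- than in wild type glands, among them Lyz1 (-3.44 ± 0.62, adjusted p = 0.00216) and Tyrobp (-1.64 ± 0.27, adjusted p = 0.00111), and 1, Cd14, was higher (2.00 ± 0.60, adjusted p = 0.0344). Over the 30 arrays the macrophage mean correlated with Ctss at 0.919, Lgmn at 0.965 and Laptm5 at 0.959, and with Ctsl at 0.145. These correlations were not particular to macrophages. For Ctss, Lgmn and Laptm5 the fibroblast mean gave 0.920, 0.882 and 0.918 and the adipocyte mean 0.784, 0.823 and 0.810. The milk protein mean gave -0.804, -0.827 and -0.814, and the luminal epithelial mean 0.028, 0.319 and 0.148. The part of macrophage content in the differences of Ctss, Lgmn and Laptm5 was not tested.

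Other cell types were read in the same way. Luminal epithelial markers, 6 tested of 10 listed, were higher than at lactation for 5, 3, 5 and 3 on wild type days 1 to 4 and for 5, 4, 4 and 4 on E2F3 +/- days, and their mean over 5 genes correlated with Ctsl at 0.819. That mean lay between 3.95 and 4.72 on wild type day 1 arrays, against 1.01 and 2.02 at lactation. Wild type day 2 replicate 2, the array lowest in Ctsl at that time, was also lowest in this mean at 1.22. In E2F3 +/- glands the luminal mean lay between 1.54 and 2.26 at lactation and 3.32 and 3.70 at day 1. At E2F3 +/- day 3 it was much the same as at day 1 (3.27 to 3.71), though mean log2 Ctsl was 1.83 there and 3.81 at day 1. Fibroblast markers, 4 tested of 6 listed, were higher for 0, 4, 4 and 4 and for 2, 4, 4 and 4, and 3 of the 4 were lower in E2F3 +/- than in wild type glands at day 2. Both tested milk protein genes were higher in E2F3 +/- glands at day 2, Lalba by 3.36 ± 0.65 (adjusted p = 0.00337) and Csn3 by 1.54 ± 0.47 (adjusted p = 0.0361). Skeletal muscle markers, 4 tested of 7 listed, were higher for 0, 4, 2 and 4 on wild type days and for 0, 0, 2 and 1 on E2F3 +/- days. Adipocyte markers, 2 tested of 6, were higher for 0, 2, 1 and 2 and for 1, 2, 2 and 2. The single tested myoepithelial gene, Krt5, was called higher on days 2 to 4 in both genotypes, the single endothelial gene, Pecam1, on E2F3 +/- day 2 alone, and the single B and plasma cell gene, Jchain, on wild type days 2 and 4 and E2F3 +/- days 3 and 4. No listed T cell, NK cell or neutrophil marker was measured by a probe with a single symbol. The part of these cell types in the results was not tested.

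**Figure D4:**
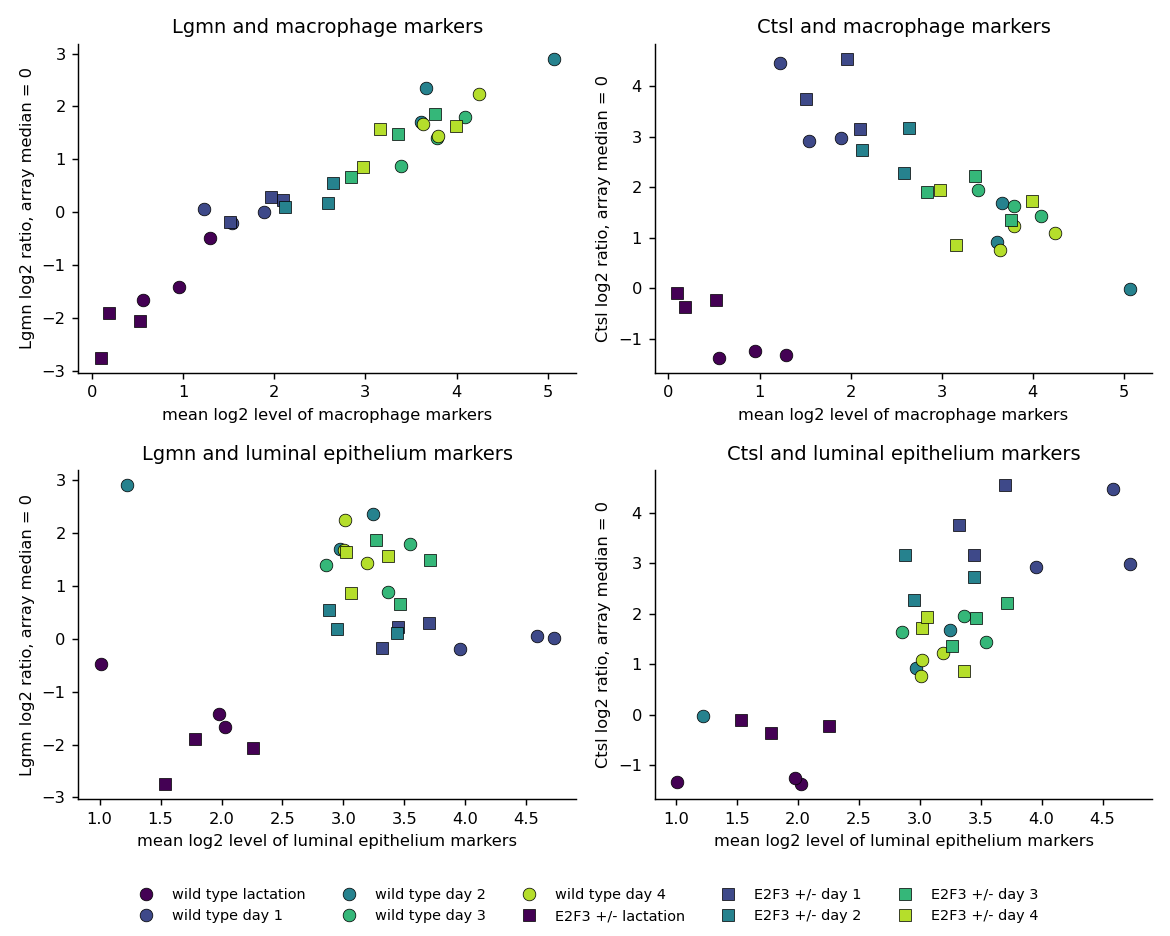
Log2 ratio of Lgmn (left) and Ctsl (right) on each array against the mean log2 ratio of 9 macrophage markers (top) and of 5 luminal epithelium markers (bottom). Circles are wild type and squares E2F3 +/- arrays, and colour gives the time. Lgmn rises along the macrophage mean through all 10 groups (r = 0.965). The Ctsl day 1 arrays lie at a lower macrophage mean than the arrays of days 2 to 4. Their luminal mean is the highest of all in wild type glands (3.95 to 4.72). In E2F3 +/- glands (3.32 to 3.70) it overlaps with that of day 3 (3.27 to 3.71).

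The rest of the lysosome was read from 135 other genes in 6 role lists, of which 56 were tested. On wild type days 1 to 4, 12, 27, 24 and 29 of these 56 were higher than at lactation and 7, 10, 4 and 9 lower. On E2F3 +/- days the counts were 24, 24, 28 and 27 higher and 9, 10, 14 and 12 lower. Over all probes 18.5%, 31.8%, 17.4% and 25.4% were higher on wild type days and 23.2%, 23.7%, 34.2% and 33.2% on E2F3 +/- days. Lower were 18.2%, 33.4%, 21.6% and 31.0% on wild type days and 20.3%, 22.2%, 32.7% and 37.4% on E2F3 +/- days. These shares of all probes are also the ones to set beside the counts of the marker lists above and the single lists below. The median log2 difference of the 56 genes on wild type day 4 was 0.64, against 2.66 for the 6 genes and 0.06 for all probes. The 6 genes and the lists were chosen with earlier results of these data known, so these medians are a description and not a test.

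The 8 other tested proteases were not uniform. On wild type days 1 to 4, 0, 5, 5 and 5 of 8 rose and 2, 0, 0 and 1 fell, and on E2F3 +/- days 3, 4, 5 and 4 rose and 2, 1, 1 and 0 fell. Ctsb, the cathepsin B gene, was higher than at lactation on wild type days 2, 3 and 4 by 2.01 ± 0.31, 0.98 ± 0.31 and 1.69 ± 0.31, and at day 2 it was lower in E2F3 +/- than in wild type glands by 1.29 (SE 0.31, adjusted p = 0.0103). Ctsc, whose product cathepsin C activates serine proteases of immune cells, fell at day 1 by 2.06 in wild type and by 1.95 in E2F3 +/- glands (adjusted p = 1.04e-05 and 2.27e-05), the day on which Ctsl peaked. Cpq, a carboxypeptidase, fell at day 1 by 1.36 and by 0.92 (adjusted p = 0.00375 and 0.0355).

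Glycosidases and sulfatases, the class of Idua, moved both ways: of 12 tested, 2, 4, 4 and 5 rose and 1, 5, 2 and 2 fell on wild type days, and 4, 4, 4 and 3 rose and 2, 4, 6 and 5 fell on E2F3 +/- days. Gusb, beta-glucuronidase, fell by 1.78 on wild type day 4 and by 2.96 on E2F3 +/- day 4 (adjusted p = 0.00178 and 3.14e-05), while Idua was higher on both. Arsb, arylsulfatase B, which like Idua acts on dermatan sulfate, fell by 1.84 on wild type day 2 and was higher in E2F3 +/- than in wild type glands at that time (1.07 ± 0.27, adjusted p = 0.0153). Man2b1, lysosomal alpha-mannosidase, rose on wild type days 2, 3 and 4 (1.52 ± 0.29, 1.18 ± 0.29 and 1.39 ± 0.29) and was not called on E2F3 +/- days.

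Among 6 tested lipid and other hydrolases, 0, 2, 3 and 4 rose and 2, 1, 1 and 1 fell on wild type days, and 1, 2, 3 and 2 rose and 2 fell on each E2F3 +/- day. Gm2a, the activator protein that presents GM2 ganglioside to its hydrolase, fell by 4.02, 4.59, 2.70 and 2.69 on wild type days 1 to 4. Acp5, the tartrate-resistant acid phosphatase of osteoclasts and macrophages, was higher on wild type day 4 by 2.11 ± 0.57 and on E2F3 +/- day 3 by 2.83 ± 0.57. Pla2g15, a lysosomal phospholipase, was higher on E2F3 +/- day 1 by 2.52 ± 0.33 and not called on wild type day 1 (0.39 ± 0.37).

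Of 12 other membrane proteins, the class of Laptm5 and Cln3, 6, 6, 8 and 8 rose on wild type days and 8 rose on each E2F3 +/- day, with 0 falling on any day. Cd68, a macrophage lysosomal glycoprotein, was higher by 1.77 ± 0.42 on wild type day 1 and 3.20 ± 0.42 on wild type day 4. Lamp1, the major membrane glycoprotein of lysosomes, was higher by 1.38 ± 0.26 on wild type day 2 and 1.71 ± 0.26 on day 4. Scarb2, the receptor that carries glucocerebrosidase to the lysosome, was already higher at day 1 by 1.82 ± 0.21 in wild type and 1.97 ± 0.21 in E2F3 +/- glands. At day 2, Gpnmb was lower in E2F3 +/- than in wild type glands by 2.91 (SE 0.57, adjusted p = 0.00434) and Lamp2 higher (1.05 ± 0.23, adjusted p = 0.00715), 2 genes named after their values were seen.

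Of 9 tested proton pump genes, 2, 5, 1 and 2 rose and 1, 2, 1 and 2 fell on wild type days, and 4, 3, 3 and 5 rose and 1, 1, 2 and 2 fell on E2F3 +/- days. Tcirg1, a membrane subunit of the pump best known from osteoclasts, rose on wild type day 4 by 1.11 ± 0.32, whereas Atp6v0a2, another form of that subunit, fell by 1.28 and Atp6ap1, an accessory subunit, was at -0.86 ± 0.53, not called. Atp6v0a2 was higher in E2F3 +/- than in wild type glands at day 2 (1.60 ± 0.32, adjusted p = 0.00451). Among 9 sorting genes, 2, 5, 3 and 5 rose and 1, 2, 0 and 3 fell on wild type days, and 4, 3, 5 and 5 rose and 2, 2, 3 and 3 fell on E2F3 +/- days. The receptors that carry proteases to the lysosome moved apart: M6pr rose on wild type day 2 by 1.28 ± 0.22 and Igf2r fell by 1.64. Ap1m1, a subunit of the adaptor that packs these receptors into vesicles, fell by 2.07 on that day.

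Of 4 tested inhibitors of cathepsins, 3, 2, 3 and 3 rose and 1, 1, 1 and 1 fell on wild type days, and 3, 3, 3 and 4 rose and 1, 0, 0 and 0 fell on E2F3 +/- days. Cst3, cystatin C, a secreted inhibitor of cathepsins L and S, fell by 2.61 at wild type day 1 and by 0.69 at E2F3 +/- day 1 (adjusted p = 3.15e-08 and 0.0307). Ctla2a, an inhibitor of cathepsin L in mice, rose at those times by 2.41 ± 0.41 and 1.46 ± 0.41. Serpinb6a, an intracellular serine protease inhibitor, rose by 3.70 ± 0.55 on wild type day 2.

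Of 4 tested regulators of lysosomal genes in this gland, 3, 2, 3 and 3 rose and 1, 1, 1 and 1 fell on wild type days, and 3, 3, 2 and 2 rose and 0, 1, 1 and 1 fell on E2F3 +/- days. Osmr, the receptor of oncostatin M, which acts through Stat3, was higher at day 1 by 2.75 ± 0.31 in wild type and 2.63 ± 0.28 in E2F3 +/- glands. Socs3, a feedback inhibitor induced by Stat3, was higher by 1.56 ± 0.29 and 2.14 ± 0.29, and Hif1a, the hypoxia factor, fell by 0.79 in wild type glands and was at -0.47 ± 0.26, not called, in E2F3 +/- glands. Stat3 itself was higher in E2F3 +/- than in wild type glands at day 2 (1.75 ± 0.51, adjusted p = 0.0282), and it too was named after its value was seen. The other tested regulators were not called between genotypes at day 2: Osmr was at 0.07 ± 0.28, Socs3 at 0.68 ± 0.29 and Hif1a at -0.63 ± 0.26. At that time 3 of the 56 other lysosomal genes (5.36%) were higher in E2F3 +/- glands (Arsb, Lamp2 and Atp6v0a2), against 7.17% of all probes. Another 3 were lower (Ctsb, Gpnmb and Atp6v1c1, the last also chosen after its value was seen), against 5.57% of all probes. Neither count thus exceeded the share over all probes.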

How the data were processed

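RNA of 30 mammary glands and 1 mouse reference RNA were amplified and hybridised to spotted oligonucleotide arrays, per the labels' protocols. The authors deposited 1 linear ratio per probe and array for 6267 probes. The sources used here do not name the scanner, background correction or normalization, and no intensities or spot flags were used, so signal over background is unknown. The direction, likely gland over reference, was taken from the dyes in the labels. Normalization on all probes hides a change shared by most genes, and amplification can compress or distort ratios.

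Values at 0 (13146) or 0.01 (1223), 7.64% of all, were set to missing. Ratios were put on the log2 scale and centred on each array's median. Probes with values on at least 2 of 3 arrays in every group were kept (5010). Genes were named from GEO's platform annotation, in which 3997 probes have 1 symbol, 115 several and 2155 none. A list gene with several tested probes was given by 1 probe, which affects 6 genes. A linear model with 10 group means (20 residual degrees of freedom) was fitted with limma 3.58.1 in R 4.3.3, two-sided, with Benjamini-Hochberg adjustment over 5010 probes and a threshold of 0.05. The test was tried on simulated data first. Tables and figures were made with Python 3.11.15.

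The 6 members and all lists were chosen with earlier results of these data known. All members are named. In each of the 6 role lists the 3 tested genes with the smallest adjusted p in either F test over days are named, and likewise 3 inhibitors and 3 regulators. Genes most like a member are the 3 with the highest correlation over at least 28 arrays. The labels number 3 replicates per group, read here as 3 mice, and p-values measure the spread between these replicates. Same-numbered mice of the 2 genotypes were not treated as pairs. Their correlation of deviations from the group means lay between -0.27 and 0.23. That range has no baseline from differently numbered mice, so it cannot settle whether they were paired. The 41 alternative settings comprise 30 that leave out 1 array and 11 others, 1 of them (without the 3 arrays that stood apart) chosen after seeing the data. The 90 deposited protocol files hold no measurements and were not used.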

Additional observations from a re-analysis of the deposited data

Results flagged for a closer look

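In 2 genes the change over days 1 to 4 against lactation differed between genotypes by the F test of genotype by time. For Lgmn the F was 6.21 (limma adjusted p = 0.0403). Its rise on day 1 was 1.14 ± 0.36 in wild type and 2.35 ± 0.36 in E2F3 +/- glands (log2 ± SE, n = 3 against 3), and on day 2 it was 3.51 ± 0.36 and 2.52 ± 0.36. For Laptm5 the F was 5.67 (limma adjusted p = 0.0460). Its change on day 1 was -0.13 ± 0.46 in wild type and 2.02 ± 0.46 in E2F3 +/- glands, and on day 2 it was 3.18 ± 0.46 and 2.73 ± 0.46. Both are close to the threshold. Each change is taken from lactation, where the genotypes differed by -1.05 ± 0.36 for Lgmn and -1.52 ± 0.46 for Laptm5. At day 1 itself they differed by 0.16 ± 0.36 and 0.63 ± 0.46, and none of these differences was called.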

How the results depend on the processing

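The ratios carry no depth, and 3 mice per group limit the precision. Ctss and Lgmn at day 2 between genotypes were called in all 41 alternative settings, Ctsl in 40 and Laptm5 in 38, and no called value of the 6 genes changed sign. Where a count of called genes among the 6 moved by over 1.5 times, it was as follows, with the cause not tested.

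Array weights gave 4 genes on wild type day 1 against lactation (2 in the reported analysis), 3 at E2F3 +/- day 2 against day 1 (0), 5 at E2F3 +/- day 3 against day 2 (0), 3 between genotypes at lactation (0) and 1 at day 3 (0), 1 and 2 for genotype by time at days 1 and 3 (0 each) and 4 for the F test of genotype by time (2). In these comparisons array weights called 3005, 613, 1242, 275, 863, 190, 623 and 1814 of all probes, against 1839, 6, 0, 19, 0, 19, 12 and 303. Setting 0 and 0.01 to the smallest positive value gave 3 on E2F3 +/- day 2 (5), 0 between genotypes over all times (2) and 0 for the F test of genotype by time. Without a filter these last 2 counts were 0 and 1. Fitting only the groups compared gave 1 between genotypes at lactation and 2 at day 2 (4). Without 2 arrays (wild type day 2 replicate 3 and E2F3 +/- day 4 replicate 3), 1 was called at E2F3 +/- day 3 against day 2, 1 between genotypes at day 3 and 4 over all times. Without the 3 arrays that stood apart, 1 was called at wild type day 3 against day 2 (0), 4 at E2F3 +/- day 3 against day 2, 1 between genotypes at day 3, 4 over all times, 1 for genotype by time at day 3 and 4 for the F test of genotype by time, where 1161, 1321, 1150, 1088, 670 and 1754 of all probes were called. Replicate numbers were not treated as pairs in the reported analysis. With the replicate block, 1 gene was called between genotypes over all times and 0 for the F test of genotype by time.

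Leaving out 1 array at a time gave 1 to 2 genes on wild type day 1, 4 to 6 on day 2, 4 on day 3 and 4 to 5 on day 4, 3 to 4, 3 to 5, 5 to 6 and 5 to 6 on E2F3 +/- days 1 to 4, 4 to 5 and 0 to 2 at the wild type steps to days 2 and 3, and 0 to 3 at the E2F3 +/- step to day 3. It gave 0 to 1 between genotypes at lactation, 3 to 4 at day 2, 0 to 1 at day 3 and 0 to 3 over all times, 0 to 1 for genotype by time at day 1, and 4 to 6, 6 and 0 to 3 for the F tests over wild type days, over E2F3 +/- days and of genotype by time.

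Over all probes, the ratios as deposited moved the median of a comparison by -0.13 to 0.24 on the log2 scale. Array weights raised the count of called probes from 1954 to 3487 on wild type day 3, and from 2183 to 3500 and 2298 to 3670 on E2F3 +/- days 1 and 2. Fitting only the groups compared raised it to 3386 on wild type day 3, and to 3375 and 3644 on E2F3 +/- days 1 and 2. For genotype at day 2, 638 probes became 321 with only the groups compared, 270 with the floor and 290 with array weights. The wild type step from day 2 to day 3 went from 828 to 400 with only the groups compared and 369 with the floor. The F test of genotype by time gave 466 with quantile normalization, 49 with the floor, 192 with the replicate block, 1097 without the 2 arrays and 1754 without the 3. In the other comparisons with few calls, the lowest and highest counts over all settings were 0 and 760 for the wild type step to day 4 (0 reported), 2 and 613, 0 and 1321, and 0 and 607 for the E2F3 +/- steps to days 2, 3 and 4 (6, 0 and 0), 14 and 275, 2 and 239, 0 and 1150, and 0 and 1263 between genotypes at lactation and days 1, 3 and 4 (19, 33, 0 and 56), 17 and 1088 over all times (31), and 12 and 190, 0 and 160, 10 and 670, and 10 and 875 for genotype by time at days 1 to 4 (19, 0, 12 and 16).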
